A study of Mus musculus with 12 samples.

Results

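Krüppel-like factors are DNA-binding proteins with zinc fingers that bind GC-rich and CACCC-type sequences in promoters and either activate or repress the genes they bind. Klf2 and Klf4 are known for quiescence in endothelial cells and in leukocytes, Klf4 also for growth arrest in epithelium, and Klf5 for proliferation of epithelial cells. Klf6, Klf10 and several others respond quickly to growth factors, and Klf10 was first described as a gene induced by transforming growth factor beta. The 10 members described here, Klf2, Klf3, Klf4, Klf5, Klf6, Klf7, Klf9, Klf10, Klf13 and Klf16, were taken by gene name from a table of 54146 genes, of which 17 are named Klf and a number.

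D2A1, a mouse mammary carcinoma line, was labelled with green fluorescent protein on a histone and with CellVue Claret, a membrane dye that fades as cells divide, and was injected into the tail vein of female mice aged 6 to 8 weeks. Tumour cells were sorted from the lungs 12 days later (RNA-seq methods; the results text has 14) as dye-positive (dormant) or dye-negative (growing), in aliquots of 50 cells, and their RNA was sequenced. Hosts were WT, which a figure legend of the study calls flox controls, or KO, in which Cre driven by the Lysozyme 2 promoter deletes Tgfbr2, which encodes the type II TGF-β receptor, in myeloid cells. The deletion was in the host and not in the D2A1 cells. Dormant and growing cells of each host gave 3 libraries, in 4 groups (named dormant WT to growing KO), and the labels number the libraries without naming the mice, so that a p-value measures the spread between these libraries.

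The dormant KO libraries stood apart from the other 9 in what their label implies. The summed level of 10 markers of a mammary tumour line (keratins, Spp1, Akr1c18 and proliferation genes, of which 9 to 10 were above 0) was 1757 to 2317 TPM (a relative transcript level in which gene length is divided out) in dormant KO libraries. The sum was 34859 to 43141 TPM for dormant WT libraries, while for the growing ones it ran from 33689 to 35870 with WT and from 31091 to 35116 with KO hosts. Of the 10 markers, 5 to 9 were above 0 in dormant WT, 6 to 8 in growing WT and 8 to 9 in growing KO libraries. Spp1 and Akr1c18 carry most of the sum. Spp1 measured 1236 to 1509 TPM in dormant KO libraries and 28980 to 39951 TPM in the other 9, and Akr1c18 11.6 to 22.9 and 1309 to 2580 TPM. The keratins of the list differed among themselves. Krt8 was lower in dormant KO libraries, at 52.1 to 106 TPM, than in dormant WT (183 to 381 TPM) or growing libraries (153 to 306 TPM). Krt18 measured 159 to 249 TPM in dormant KO, 131 to 231 TPM in dormant WT and 243 to 519 TPM in growing libraries. Krt19 measured 252 to 418 TPM in dormant KO and at most 14.2 TPM in any other library. Markers of lung epithelium summed to 42733 to 45328 TPM in dormant KO libraries with 11 of 12 above 0, against at most 1439 in any other group. Of 10 endothelial markers all were above 0 in each dormant KO library and summed to 977 to 1025 TPM, whereas the sum was 11.6 to 148 for dormant WT libraries and, among growing libraries, 9.66 to 14.1 with WT and 47.4 to 55.8 with KO hosts. Markers of macrophages summed to 3351 to 3635 TPM for the dormant KO and to 1089 to 1658 for the dormant WT group, those of neutrophils to 4035 to 4358 and 326 to 915, those of lymphocytes to 229 to 423 and 0.02 to 8.33, those of fibroblasts to 1836 to 2077 and 117 to 196, and those of erythroid cells to 50831 to 56264 and 8988 to 13031. Every result below that involves the dormant KO group carries these differences, and their part in it was not tested. Macrophage markers summed to 94.0 to 104 TPM in growing WT and to 166 to 218 TPM in growing KO libraries. Neutrophil markers summed to 52.0 to 78.0 and to 95.2 to 109 TPM there, in that order. Comparisons with growing libraries, including that of states in WT hosts, carry marker differences too, and their part was not tested. In these bulk samples fewer cells of a type and less RNA per cell cannot be told apart. In addition, all WT libraries are of library batch 1 and all KO libraries of batch 2 by their names, so batch and host cannot be told apart, whereas the dormant and growing libraries of a host share a batch.

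The sequence before the start of Klf2, Klf4 and Klf13 is shown because the results below turn on these members and because the GC box and the CACCC element are the sites that the family itself binds. The windows come from RefSeq (build GRCm38.p6), run 5′ to 3′ on the gene's strand and end at the base before the start. Capitals mark CCGCCC, the GC box core, or CACCC, each on either strand. The only CACCC of the Klf2 window, 19 bases before the start, is in the part that is not printed. Klf2 lies at chr8:72318812-72319032 on the plus strand (the last 29 bases of its window lie inside the GENCODE transcript and are not printed), Klf4 at chr4:55532476-55532725 on the minus strand and Klf13 at chr7:63938916-63939165 on the minus strand.
Klf2: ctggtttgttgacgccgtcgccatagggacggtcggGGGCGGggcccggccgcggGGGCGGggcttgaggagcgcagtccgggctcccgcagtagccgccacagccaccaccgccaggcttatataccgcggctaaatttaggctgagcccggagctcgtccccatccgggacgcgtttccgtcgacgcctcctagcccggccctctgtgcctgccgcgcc
Klf4: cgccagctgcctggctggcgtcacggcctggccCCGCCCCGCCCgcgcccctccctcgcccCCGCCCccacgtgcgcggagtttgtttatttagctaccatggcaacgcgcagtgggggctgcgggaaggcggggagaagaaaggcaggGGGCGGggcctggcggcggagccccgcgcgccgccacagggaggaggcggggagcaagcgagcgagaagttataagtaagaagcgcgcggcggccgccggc
Klf13: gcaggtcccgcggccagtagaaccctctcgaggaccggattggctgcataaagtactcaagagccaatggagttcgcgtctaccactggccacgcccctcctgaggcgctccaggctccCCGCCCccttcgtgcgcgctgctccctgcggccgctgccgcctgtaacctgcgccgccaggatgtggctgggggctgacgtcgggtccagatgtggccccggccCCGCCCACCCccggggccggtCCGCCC

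Windows of 250 bases were found for 7 of the 10 members. CCGCCC, which reads GGGCGG on the other strand, lay in 6 of the 7, and in 32.74% of all 32851 windows. CACCC, which reads GGGTG on the other strand, lay in 5 of the 7 and in 52.01% of all windows, and in Klf13 it overlaps a GC box. The longer CCCCACCC, read as GGGTGGGG on the other strand, which contains CACCC and which the study's motif search named for Klf4, lay in the windows of Klf3 and Klf7 and in 9.05% of all windows, and it lay in neither the Klf2 nor the Klf4 window. The 3 windows printed were GC-rich, at 71.2% for Klf2, 74.0% for Klf4 and 71.6% for Klf13. A match of letters is a description and says nothing of binding.

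The make-up of the family differed between the dormant KO group and the rest. Klf2 was the highest member in each of the 3 dormant KO libraries, at 36.5% to 44.7% of the summed TPM of the 10 genes. Klf6 was highest in 7 of the other 9 libraries, and the other two were led by Klf13 (dormant WT 3) and Klf3 (growing WT 3). Klf2 and Klf4 together made up 57.2% ± 3.59 (SD, n = 3) of the sum in dormant KO libraries and 19.9% ± 7.18 in their WT counterparts. For growing libraries the share was 12.4% ± 0.857 with WT and 14.4% ± 3.25 with KO hosts. The sum itself was 172 ± 10.5 TPM in dormant KO libraries and 248 ± 46.8 in their WT counterparts, and growing libraries summed to 164 ± 21.5 with WT and 139 ± 24.1 with KO hosts.

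**Figure D1:**
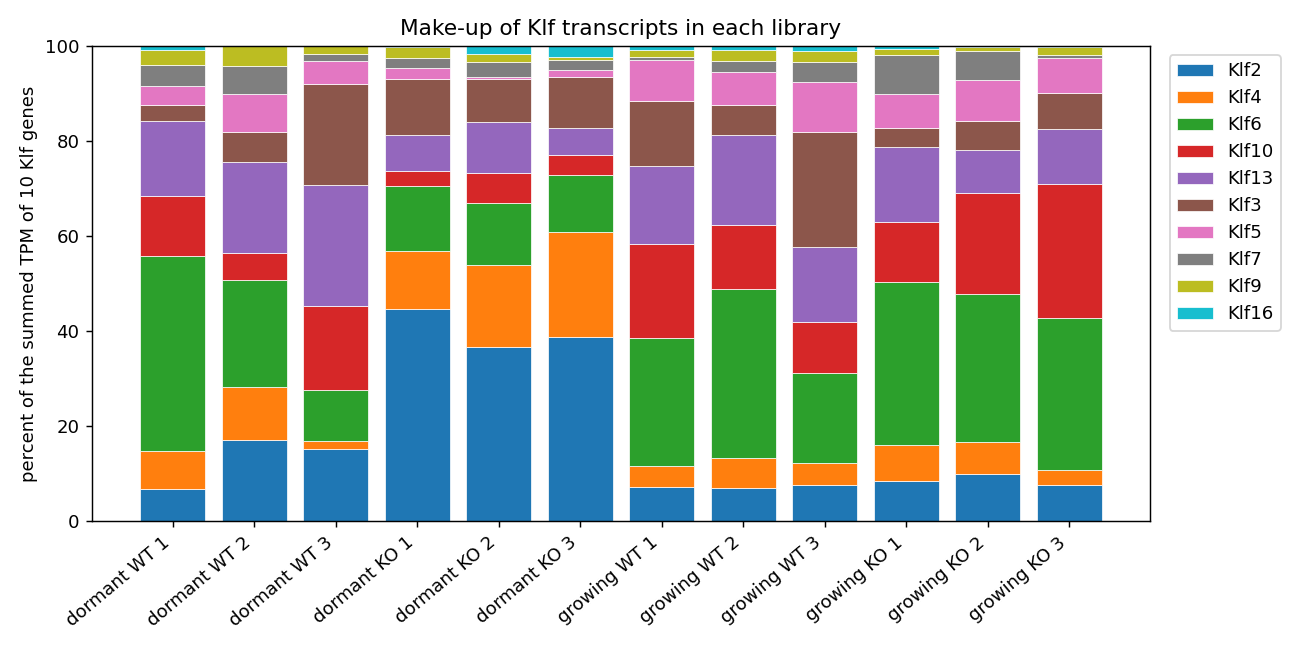
Share of each Klf gene in the summed TPM of the 10 genes (percent, vertical axis) in the 12 libraries (horizontal axis). Klf2, at the foot of each bar, takes 36.5% to 44.7% in the 3 dormant KO libraries and at most 16.95% in the others.

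Ratios within a library do not depend on how its total was scaled. The ratio of Klf2 to Klf6 was 2.76 to 3.28 in dormant KO libraries and 0.166 to 1.44 in their WT counterparts. Among growing libraries it ran from 0.194 to 0.401 with WT and from 0.236 to 0.319 with KO hosts. The ratio of Klf4 to Klf5 was 5.28 to 45.1 in dormant KO libraries and 0.373 to 1.93 in their WT counterparts. The value of 45.1 is that of dormant KO 2, where Klf5 measured only 0.67 TPM. In growing libraries it ran from 0.441 to 0.933 in WT and from 0.422 to 1.07 in KO hosts. The dormant KO libraries therefore lay apart from all others in both ratios, which are given as a description.

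In the order of median levels, Klf6 (43.7 TPM) and Klf13 (43.2 TPM) led the dormant WT group, followed by Klf10, Klf2, Klf4, Klf5, Klf3, Klf7, Klf9 and Klf16, and there only Klf9 and Klf16 had ranges that did not overlap as neighbours. In dormant KO libraries the order was Klf2, Klf4, Klf6, Klf3, Klf13, Klf10, Klf7, Klf9, Klf16 and Klf5, with Klf2 apart from Klf4 and every other pair of neighbours overlapping. In both growing groups Klf6 led (49.5 TPM in WT and 48.1 in KO hosts) and Klf16 was last. Among growing WT libraries Klf6 lay apart from Klf13, Klf10 from Klf5, Klf2 from Klf4 and Klf4 from Klf9, and among growing KO libraries only Klf4 from Klf9 and Klf9 from Klf16.

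**Figure D2:**
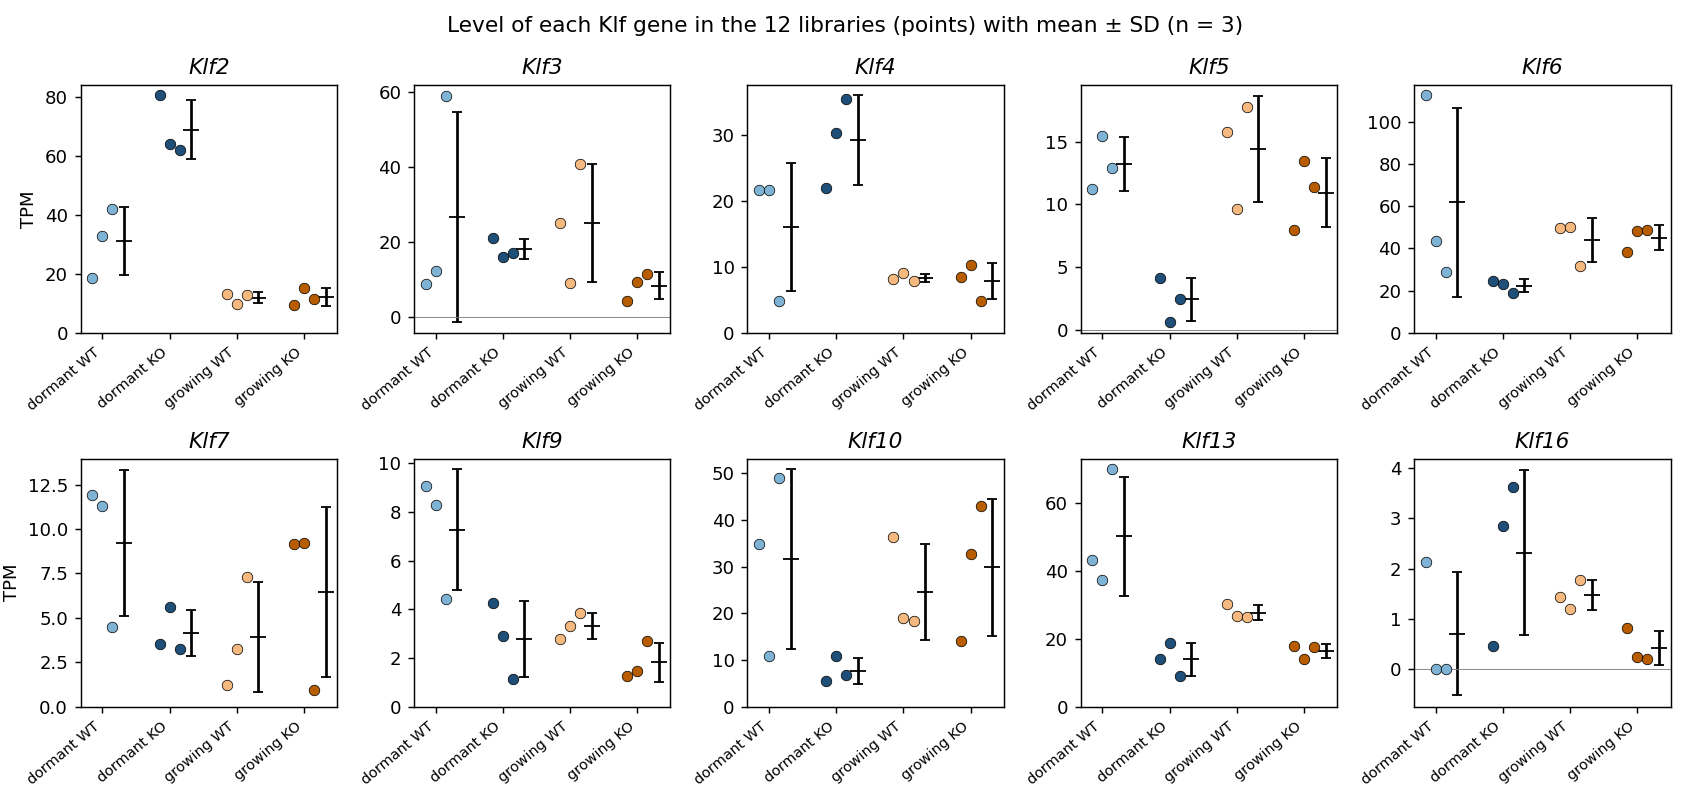
TPM of each of the 10 Klf genes (vertical axes, which differ in range) in the 4 groups, with 1 point per library and the mean ± SD of 3 libraries beside it. Klf2 sits between 62.1 and 80.4 TPM in dormant KO libraries and between 9.37 and 15.3 in growing KO libraries.

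Whether a member differs between dormant and growing cells, or between hosts, was tested with limma on log2(TPM + 1) over 13002 genes, and a gene was called at a Benjamini-Hochberg adjusted p of at most 0.05 and a difference of at least 1. All 10 members passed the filter on low values. With 3 libraries against 3, an exact permutation test of a single gene cannot go below p = 0.1, which is the two-sided value for Klf2 and for Klf4 in the dormant host comparison and in the comparison of states in KO hosts.

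In KO hosts, Klf2 was higher and Klf5 lower in dormant than in growing libraries, so that 1 member of the 10 was called higher and 1 lower. Over all genes tested, 8.31% were called higher and 9.48% lower. The median difference of the members was 0.07 on the log2(TPM + 1) scale and that of all genes -0.32.

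Klf2, a factor of endothelial and T cell quiescence, is encoded at chr8:72319033-72321656 on the plus strand (GRCm38). Its level was 80.4, 64.0 and 62.1 TPM in dormant KO libraries 1 to 3 and 9.37, 15.3 and 11.5 TPM in growing KO libraries 1 to 3. Every dormant library lay above every growing library, and the ratio of the means was 5.70. Klf2 rose by 2.43 ± 0.41 (SE) on the log2(TPM + 1) scale (adjusted p = 0.00158), and it was called under each of 23 alternatives. Both groups are of library batch 2. Markers of several cell types moved with Klf2. Of those tested, 8 of 10 endothelial, 8 of 11 lung epithelial, 5 of 9 macrophage, 4 of 4 neutrophil, 4 of 8 lymphocyte, 3 of 8 fibroblast and 4 of 5 erythroid markers were called higher, and their part in the result was not tested.

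Klf5, a factor of epithelial proliferation, is encoded at chr14:99298691-99315036 on the plus strand. It measured 4.15, 0.67 and 2.51 TPM in dormant KO libraries and 7.98, 13.5 and 11.4 TPM in growing KO libraries. The groups did not overlap. It fell by 1.91 ± 0.54 (adjusted p = 0.0272). The call was lost without dormant KO 2 (adjusted p = 0.10), dormant KO 3 (0.0617), growing KO 2 (0.101) or growing KO 3 (0.0816). It was also lost under median-ratio scaling (0.107) and with a replicate block by number (0.0505) or by host and number (0.104). In the same comparison 5 of the 8 tumour line markers tested were called lower and 1 higher. Among the keratins Krt8 and Krt18 were lower (differences of -1.58 and -1.39) and Krt19 higher (4.51).

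Klf4, a factor of growth arrest and one of the reprogramming factors, is encoded at chr4:55527143-55532466 on the minus strand. It measured 21.9, 30.2 and 35.4 TPM in dormant KO libraries and 8.52, 10.2 and 4.81 TPM in growing KO libraries, again without overlap and with a ratio of means of 3.72. The difference was 1.80 ± 0.58 with an adjusted p of 0.0518, just outside the threshold. Without dormant WT 1, 2 or 3, which are in neither of the groups compared here, the adjusted p was 0.0341, 0.0289 and 0.00809. Klf4 was also called with a pseudocount of 5 (0.0339), a minimum of 5 TPM (0.0482), median-ratio scaling (0.0139), quantile normalization (0.0110), array weights (0.00680) and the 2 groups fitted alone (0.0134), which makes 9 of 23 alternatives, and over all of them its adjusted p ran from 0.00680 to 0.170.

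Among the other members in KO hosts, Klf10 and Klf6 had lower levels in each dormant library than in any growing library and Klf3 had higher ones, without a call. Non-overlap of this kind was seen upward in 16.4% and downward in 28.3% of all genes, and in 3 members each way. Klf10, induced by transforming growth factor beta, measured 5.46, 10.8 and 6.84 TPM against 13.98, 32.7 and 43.0 TPM (difference -1.74, adjusted p = 0.0777), and its call was gained without dormant WT 2 (0.0228) or dormant WT 3 (0.0499), with array weights (0.0183) and with the 2 groups fitted alone (0.0328). Klf6, a growth-factor-responsive member, measured 24.8, 23.2 and 18.9 TPM against 38.3, 48.1 and 48.8 TPM (difference -0.98, adjusted p = 0.182, or 0.0447 and called with array weights). Over 23 alternatives the Klf6 difference ran from -1.09 to -0.41, with an adjusted p of up to 0.609. Klf3, a repressor that recruits the corepressor Ctbp, measured 21.2, 16.1 and 17.0 TPM against 4.39, 9.27 and 11.5 TPM (difference 1.10, adjusted p = 0.347).

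In WT hosts no member was called between dormant and growing libraries by limma (1 member at an unadjusted p under 0.05, as were 23.9% of all genes), where 7.51% of all genes were called. Klf2 measured 18.7, 32.8 and 41.8 TPM in dormant and 13.2, 9.74 and 12.7 TPM in growing cells of these hosts. Its groups did not overlap, the ratio of the means was 2.62, and the difference was 1.26 ± 0.41 (adjusted p = 0.0855). Without dormant WT 1, the library with the lowest level, it was 1.57 (adjusted p = 0.0188) and called. Of the markers tested in this comparison, 4 of 9 macrophage, 2 of 4 neutrophil and 1 of 8 fibroblast markers were called higher. Called lower were 1 of 8 fibroblast, 1 of 11 lung epithelial and 1 of 8 lymphocyte markers. The part of these markers in the result was not tested.

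Klf4 in WT hosts depended on the library, with 21.6, 21.6 and 4.80 TPM in dormant and 8.12, 9.01 and 7.83 TPM in growing libraries (difference 0.63, adjusted p = 0.557). Dormant WT 3 lay below every growing WT library and the other two above all of them. Without dormant WT 3 the Klf4 difference was 1.28, without a call. Klf13, a factor known for induction of Ccl5 in T cells, measured 43.2, 37.3 and 69.9 TPM in dormant and 30.1, 26.7 and 26.4 TPM in growing WT libraries (difference 0.78, adjusted p = 0.273). Klf9, a glucocorticoid-responsive repressor, measured 9.08, 8.31 and 4.45 TPM against 2.79, 3.34 and 3.87 TPM (difference 0.89, adjusted p = 0.332). These 3 members, Klf2, Klf13 and Klf9, were higher without overlap, as were 7.22% of all genes, and none was lower without overlap, as were 19.4%.

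**Figure D3:**
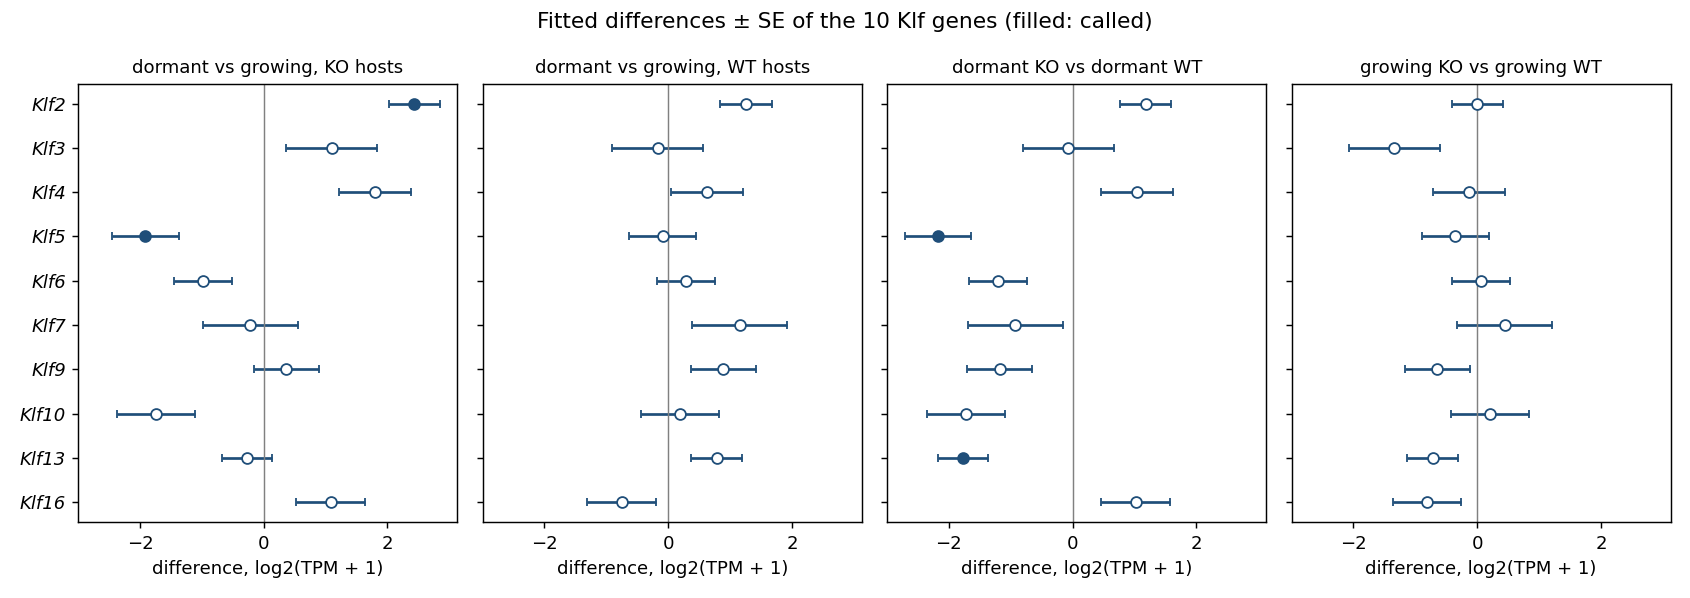
Fitted difference of each Klf gene on the log2(TPM + 1) scale (horizontal axes) with its standard error in 4 comparisons, 3 libraries per group; filled points passed the threshold. Klf2 and Klf5 are filled in the first panel (2.43 and -1.91) and Klf5 and Klf13 in the third (-2.18 and -1.77).

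The interaction, which sets the state difference of KO hosts against that of WT hosts (KO minus WT), was called for no member by limma (2 members at an unadjusted p under 0.05, Klf5 and Klf16, as were 23.3% of all genes), where 10.1% of all genes were called. Its value was 1.18 ± 0.58 for Klf2 (adjusted p = 0.264), 1.17 ± 0.82 for Klf4 (0.465) and -1.82 ± 0.76 for Klf5 (0.171). The state differences of Klf2 and Klf5 are therefore not shown to differ between hosts. Klf16 without dormant WT 1 (2.38, adjusted p = 0.0393) and Klf10 without dormant WT 2 (-2.54, adjusted p = 0.0425) were called.

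Between dormant cells of KO and WT hosts, 2 members, Klf13 and Klf5, were called lower and none higher, where 9.39% of all genes were called lower and 12.9% higher. The members' median difference was -1.05 and that of all genes 0.17, and 7 of the 10 members were below 0. This comparison uses the same dormant KO libraries as the comparison of states in KO hosts, so the shared behaviour of Klf5 is not a second observation.

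Klf13, at chr7:63886351-63938915 on the minus strand, measured 13.9, 18.8 and 9.19 TPM with KO hosts and 43.2, 37.3 and 69.9 TPM with WT hosts in dormant cells. It fell by 1.77 ± 0.41 (adjusted p = 0.00778), and the call was lost only when the 2 groups were fitted alone (0.0609), among 22 alternatives. The use of strand in counting was not stated, and genes on the opposite strand overlap Klf13, so their reads cannot be told apart here. Klf5 measured 4.15, 0.67 and 2.51 TPM against 11.2, 15.5 and 12.9 TPM and fell by 2.18 ± 0.54 (adjusted p = 0.0115). Annotated genes also overlap Klf3, Klf7 and Klf9. The call on Klf5 was lost with array weights (0.138) and with the 2 groups fitted alone (0.0966).

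Klf2 in dormant cells was above its WT level in each KO library, with a ratio of means of 2.21 and a difference of 1.18 ± 0.41 (adjusted p = 0.0597). Without dormant WT 2 or dormant WT 3 the adjusted p was 0.0470 and 0.0246 and Klf2 was called. Klf2 was likewise called higher under 4 of the 10 alternatives that leave out no library, a pseudocount of 5 (0.0343), no filter (0.0398), median-ratio scaling (1.69, adjusted p = 0.0124) and quantile normalization (1.71, adjusted p = 0.0174). Klf4 was also without overlap, the closest libraries being 21.9 TPM in KO and 21.6 in WT hosts, with a difference of 1.04 ± 0.58 (adjusted p = 0.232). That difference was 0.39 without dormant WT 3, the library with 4.80 TPM. These were the 2 members higher without overlap, where 18.6% of all genes were so.

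Lower without overlap were 5 members, Klf10, Klf13, Klf5, Klf6 and Klf9, where 13% of all genes were. Klf10 measured 34.8, 10.9 and 49.0 TPM in the WT libraries beside the dormant KO values above (difference -1.72, adjusted p = 0.0696), the closest pair being 10.9 and 10.8 TPM. Klf6 measured 113, 43.7 and 29.1 TPM in dormant WT libraries (difference -1.21, adjusted p = 0.0876). Klf9 measured 4.26, 2.91 and 1.15 TPM in dormant KO libraries (difference -1.18, adjusted p = 0.133). Klf10 was called without dormant WT 2 (-2.33, adjusted p = 0.00879) and Klf6 without dormant WT 3 (-1.62, adjusted p = 0.0173), while Klf6 moved to -0.66 without dormant WT 1. Under quantile normalization Klf10 (adjusted p = 0.0484) and Klf9 (0.0445) were called lower.

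Klf3, Klf7 and Klf16 were called in no comparison. Klf3 measured 8.90, 12.3 and 58.97 TPM in dormant and 25.1, 9.17 and 40.8 TPM in growing cells of WT hosts. Klf7, a factor of neurons and of fat cells, measured 11.9, 11.3 and 4.51 TPM in dormant cells of WT and 3.53, 5.63 and 3.24 TPM in those of KO hosts. Growing cells gave 1.25, 3.23 and 7.28 TPM with WT and 9.18, 9.21 and 0.92 TPM with KO hosts, with overlap in every comparison. Klf16, the lowest member by median in every group but dormant KO, was listed at 0 in dormant WT 2 and 3 and measured 2.13 TPM in dormant WT 1, whereas the dormant KO libraries had 0.47, 2.85 and 3.62 TPM. Its dormant host difference was 1.02 (adjusted p = 0.220), or 1.57 (adjusted p = 0.0384) without dormant WT 1.

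Between growing cells of KO and WT hosts, limma called none of the 10 members, with 0 at an unadjusted p under 0.05, where 0.977% of all genes were called and 7.53% had such a p. Klf2 measured 11.9 ± 1.87 TPM (SD, n = 3) in WT and 12.1 ± 3.03 in KO hosts, and Klf4 8.32 ± 0.615 and 7.85 ± 2.77. Klf13 (30.1, 26.7 and 26.4 against 17.7, 14.2 and 17.6 TPM in KO), Klf9 and Klf16 were lower in KO hosts without overlap, as were 10.6% of all genes, and none was higher without overlap, as were 13.3%. For Klf13 the difference was -0.72 ± 0.41 (adjusted p = 0.880).

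**Figure D4:**
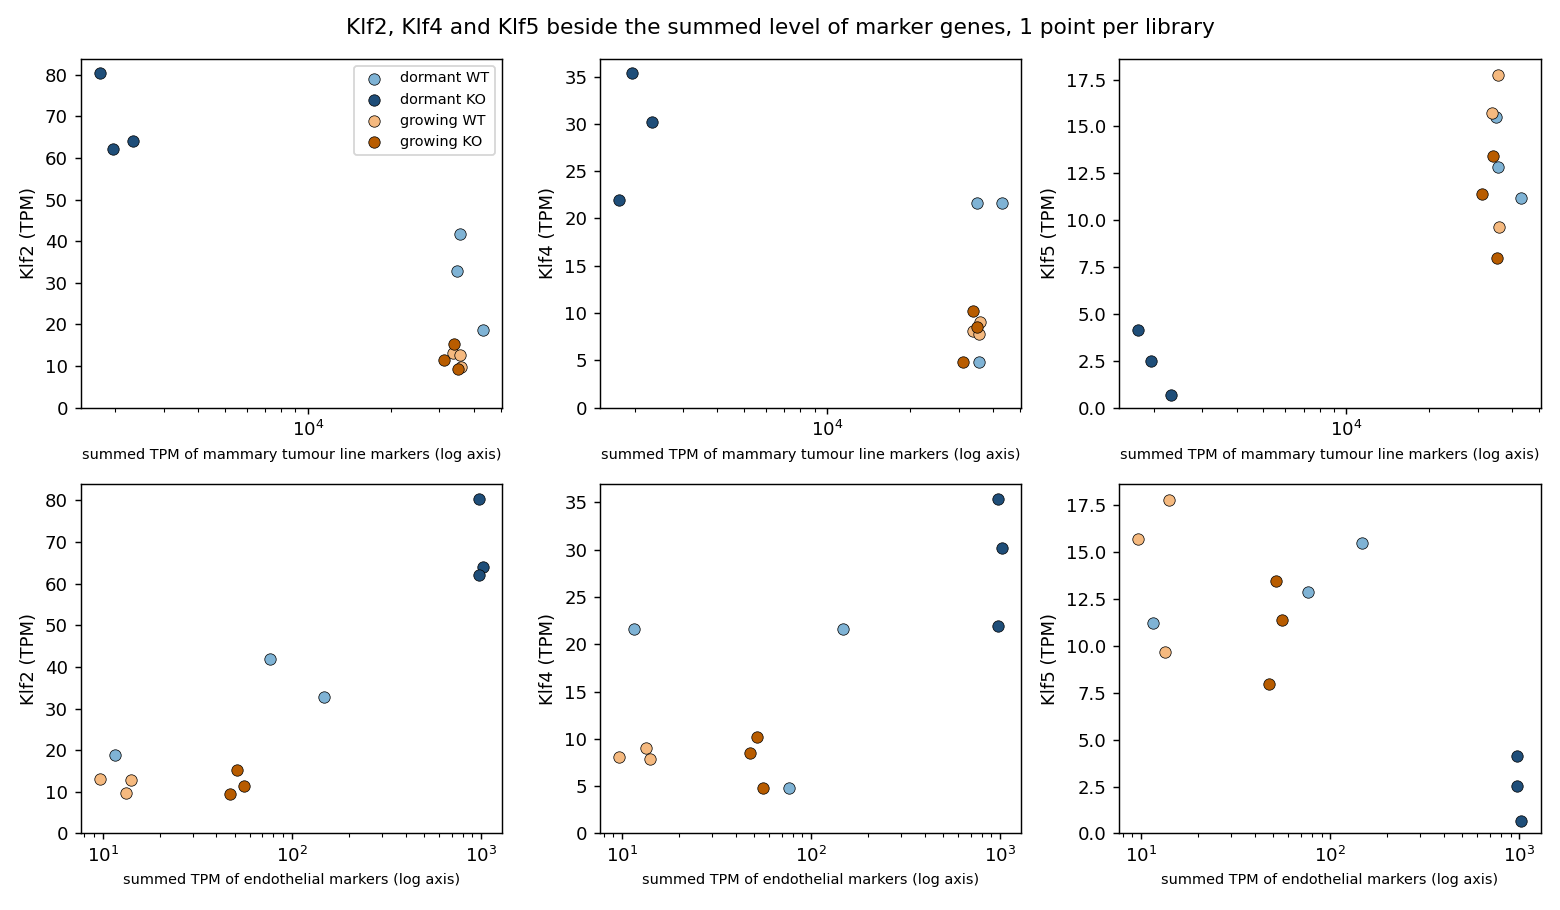
Level of Klf2, Klf4 and Klf5 (TPM, vertical axes) against the summed TPM of the markers of a mammary tumour line (upper row) or of endothelial cells (lower row), on log axes, 1 point per library. The 3 dormant KO libraries lie at 1757 to 2317 TPM for the tumour line markers and at 977 to 1025 TPM for the endothelial ones, apart from the other 9.

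Of the other 7 Klf genes only Klf1 and Klf11 passed the filter, and Klf11, a relative of Klf10, was called lower in dormant than growing cells of WT hosts (-2.85, adjusted p = 0.0261). Its levels there were 0.03, 0 and 0.07 TPM against 4.20, 10.4 and 6.01 TPM. Of the 9 Sp genes, which share the GC box with the family, 4 were tested and limma called none in the 5 comparisons, with 2 of the 20 differences at an unadjusted p under 0.05. Over all genes and the same 5 comparisons together, 11.7% of the differences were called and 24.2% had such a p.

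Of 17 partners and regulators of the family, 2 were called higher and 2 lower in dormant KO against dormant WT cells, where 12.9% and 9.39% of all genes were, and the median difference of the 17 was 0.05 against 0.17 for all genes. Wwp1, a ubiquitin ligase known to act on Klf2 and Klf5, rose by 1.93 (adjusted p = 0.0246), from 2.12, 0.04 and 0.69 TPM to 4.17, 6.91 and 6.40 TPM. Mef2d, of the family of factors that induce Klf2, rose by 1.51 (0.0458), from 0.12, 0 and 0 TPM to 2.21, 1.97 and 1.73 TPM. The coactivator Crebbp fell by 2.20 (0.00333), from 14.9, 20.2 and 16.6 TPM to 2.48, 3.23 and 3.15 TPM, and the corepressor Sin3a by 2.79 (0.0376). In WT hosts Mef2d and Crebbp were the 2 called among the 17 between dormant and growing cells, where 7.51% of all genes were. Mef2d was lower in dormant cells (-3.04, 0.00374), with 4.01, 9.86 and 10.4 TPM in growing ones. Crebbp was higher in dormant cells by 1.79 (0.0280), with 4.0, 4.27 and 4.46 TPM in growing ones. For both genes the dormant WT libraries stood apart from the other 9, below them for Mef2d and above them for Crebbp. In dormant against growing cells of KO hosts, 1 of the 17 was called higher and 1 lower, where 8.31% and 9.48% of all genes were. Wwp1 rose by 1.84 (0.0374) and the corepressor Sin3b fell by 1.33 (0.0139).

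Of 13 genes known or named in the study as targets of Klf factors, 12 were tested. Between dormant cells of KO and WT hosts, Slurp1, Cd200, S1pr1 and Thbd were called higher and Ccnd1 lower, where 12.9% and 9.39% of all genes were. The median difference of the 12 was 0.84, or 0.37 without Slurp1 and Cd200, against 0.17 for all genes. The study dealt with Slurp1 and Cd200 on these samples, so they are no independent evidence of the list's direction. S1pr1, a receptor for lymphocyte exit that is a target of Klf2, measured 99.8, 108 and 91.8 TPM with KO and 2.96, 14.3 and 6.81 TPM with WT hosts and rose by 3.69 (adjusted p = 4.03e-04). Thbd, the endothelial anticoagulant receptor thrombomodulin, measured 44.3, 40.4 and 45.1 TPM against 1.73, 25.1 and 1.72 TPM and rose by 2.93 (0.0181). In the same comparison 8 of 10 endothelial markers were called higher, and their part in the rise of S1pr1 and Thbd was not tested. Ccnd1, cyclin D1, fell by 3.06 (0.00190). Ccl5 (-1.04, 0.142) and Cdkn1a (-0.56, 0.0896) were lower without a call. Between dormant and growing cells of WT hosts Ccl5 alone was called (4.22, 3.38e-04), where 7.51% of all genes were. In KO hosts Ccl5 (3.08, 8.3e-04) and the same 4 genes were called higher and Ccnd1 lower, where 8.31% and 9.48% of all genes were.

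Slurp1 was listed at 0 in each dormant WT library and at 666, 742 and 799 TPM in dormant KO libraries, and Cd200 at 0 and at 593, 640 and 487 TPM. In growing KO libraries Slurp1 measured 6.62, 5.79 and 5.42 TPM and Cd200 26.0, 7.16 and 6.19 TPM, with both called higher than in growing WT libraries. Klf2 and Klf4 measured no more than 15.3 and 10.2 TPM in those same growing KO libraries. Between growing cells of the hosts, 2 of 11 lung epithelial, 2 of 8 fibroblast and 1 of 9 macrophage markers were also called higher. Over all genes 0.977% were called there. Sftpc, a lung epithelial marker, measured 387 to 423 TPM in growing KO and 46.0 to 84.6 TPM in growing WT libraries. The part of such transcripts in the Slurp1 and Cd200 values was not tested. The Cd200 window held 1 CACCC, 197 bases before its start, and no CCCCACCC.

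Immediate early genes, which like Klf6 and Klf10 are induced within a short time of a stimulus, were called in both directions. Of 15, Dusp1, Ier2, Junb, Myc and Nr4a1 were called lower and Egr2 higher in dormant KO than dormant WT cells, where 9.39% and 12.9% of all genes were (median of the 15, -0.27, and of all genes, 0.17). The same 5 were called lower and Fosb higher in dormant than growing cells of KO hosts, where 9.48% and 8.31% of all genes were (median of the 15, -0.41, and of all genes, -0.32). Junb measured 46.4, 93.6 and 60.5 TPM in the KO and 454, 179 and 265 TPM in the WT libraries of dormant cells (-2.10, adjusted p = 0.00104).

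The genes whose log2(TPM + 1) followed a member most closely over the 12 libraries are given as a description, since the libraries share groups. For Klf2 they were Marcks (Pearson r = 0.97) and Pla2g16 (0.96), and for Klf4 Celf2 (0.94) and Lilr4b (0.94), a receptor of myeloid cells. For Klf5 they were Pcbd1 (0.97) and Itgbl1 (0.95), for Klf13 Asap1 (0.97) and Noct (0.96), for Klf6 Ctsl (0.91) and Zbtb1 (0.91), and for Klf10 Sgms1 (0.92) and Baiap2 (0.91). For Klf9 they were RP24-503L4.3 (0.94) and Tsc2 (0.91), for Klf16 RP24-230P10.6 (0.90) and Nhsl1 (0.90), for Klf7 AC127338.1 (0.84) and Grb2 (0.78), and for Klf3 Cntd1 (0.82). Between members, r was 0.67 for Klf2 and Klf4, -0.67 for Klf2 and Klf5 and -0.74 for Klf4 and Klf10.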

How the data were processed

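RNA of sorted D2A1 cells was measured in 12 libraries (4 groups of 3). The authors trimmed reads with Cutadapt (1.18 in the submitters' processing notes), aligned them with STAR 2.5.2b to mm10 and estimated gene levels with RSEM (1.3.3 in those notes). Library preparation is Smart-seq2 in the methods and a TruSeq mRNA kit in the labels. The deposited TPM values sum to about 1000000 per library, keep no depth, and allow no counting interval, so precision is the spread of 3 libraries. RSEM splits reads between similar genes by an estimate. A further 30 per-sample columns, not mapped to a labelled sample, were not used.

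The 13002 genes that reached a TPM of 1 in 3 or more libraries were fitted on log2(TPM + 1), which understates the change of low genes, with limma 3.58.1 in R 4.3.3 (eBayes with a trend, 1 mean per group, 8 residual degrees of freedom) and 5 contrasts, two-sided, with Benjamini-Hochberg adjustment over all genes tested. No count model was used, as TPM are not counts. Coordinates come from GENCODE M21 (GRCm38). Python 3.11.15 and pandas 2.3.3 were used for summaries.

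The members and lists were chosen with earlier results of these data known. Named genes are the 10 members, genes of the 5 lists of relatives, partners, targets and immediate early genes that were called or detected, and the 2 genes most correlated with each member, of which 1 is not reported here. Marker genes named singly were chosen after their values were seen. Alternatives were pseudocounts of 0.1 and 5, a filter at 5 TPM or none, scaling by median ratios, quantile normalization, array weights, a fit of the compared groups only, adjusted p alone, replicate blocks and each library left out.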

Additional observations from a re-analysis of the deposited data

How the results depend on the processing

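TPM keeps no depth, so what depth limits cannot be stated, and with 3 libraries per group single libraries decide several calls. Under the 10 or 11 alternatives other than a library left out, no member was called in growing KO against growing WT, in dormant against growing WT or in the interaction. In dormant KO against dormant WT, 2 members were called, 3 with a pseudocount of 5, no filter or median-ratio scaling (Klf2 added), 5 with quantile normalization, 1 with array weights and 0 with the compared groups fitted alone, and 2 to 4 with 1 library left out (4 without dormant WT 2 or dormant WT 3). In dormant against growing KO, 2 were called, 3 with a pseudocount of 5, a minimum of 5 TPM or quantile normalization (Klf4 added), 2 with median-ratio scaling (Klf4 in place of Klf5), 5 with array weights and 4 with the compared groups fitted alone, and 1 to 4 with 1 library left out (4 without dormant WT 2 or 3, and 1 without dormant KO 2 or 3 or growing KO 2 or 3). With 1 library left out, 0 to 1 were called in WT hosts (1 without dormant WT 1) and 0 to 1 in the interaction (1 without dormant WT 1 or 2). Median-ratio scaling moved the median of all genes from 0.17 to 0.50 in dormant KO against WT and from -0.32 to 0.09 between states in KO hosts, where the higher share of the called genes went from 57.87% to 74.01% and from 46.69% to 69.22%. The causes were not tested.

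The deviations of same-numbered libraries had correlations from -0.0136 to 0.0206. Between dormant and growing KO libraries each was highest with its own number (0.0206, 0.0192 and 0.0109). In WT hosts only number 3 was (0.0142). The labels state no pairing, and correlations this small neither show nor exclude one. With a replicate block by number, or by host and number, 1 member, Klf2, was called between states in KO hosts (Klf5 at an adjusted p of 0.0505 and 0.104), and no other count of members changed.

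No call reversed, whereas small differences did. Klf3 in dormant KO against WT was 0.42 with median-ratio scaling and 0.30 with quantile normalization. Under quantile normalization Klf2 and Klf6 in growing KO against WT were -0.094 and -0.038. Between states in KO hosts Klf13 was 0.29 with median-ratio scaling and 0.0089 with quantile normalization, and Klf7 0.24 with median-ratio scaling. With 1 library left out, differences that changed sign ran from -0.57 to 0.73 for Klf3 in dormant KO against WT, and in growing KO against WT from -0.17 to 0.16 for Klf2, -0.32 to 0.15 for Klf4, -0.15 to 0.17 for Klf6, -0.018 to 1.25 for Klf7 and -0.12 to 0.66 for Klf10. Between states they ran in WT hosts from -0.96 to 0.34 for Klf3, -0.33 to 0.076 for Klf5, -0.26 to 0.70 for Klf6 and -0.24 to 0.80 for Klf10, and in KO hosts from -1.02 to 0.19 for Klf7. Of 509 member differences under other settings 481 kept their sign and call, as did 565 of 600 with a library left out. Klf9 and Klf16 were not tested at a minimum of 5 TPM, nor Klf16 with the KO groups fitted alone.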
